A study of Homo sapiens with 4 samples.

Results

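The COPII coat is the protein shell that buds transport vesicles from the endoplasmic reticulum (ER). Its 10 genes described here are the small GTPases SAR1A and SAR1B, the inner-coat subunits SEC23A and SEC23B, their partners SEC24A, SEC24B, SEC24C and SEC24D, and the outer-coat subunits SEC13 and SEC31A. They were taken by name from the 60721 genes of the deposited count table, through their Ensembl identifiers. SEC23A was selected on its measured CPM, already known to be lower in the siTLN1 than in the SCR libraries. Its own difference between the groups is therefore given as a description, with no test. The others were chosen as its partners in the coat, with the earlier results known.

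Polyadenylated RNA was sequenced from Hs578T, an established human breast carcinoma line. All cells received GFP, together with RNA at 1.6 µM, which was a non-targeting control in the SCR group and an siRNA against TLN1 in the siTLN1 group, and were collected 48 h later. TLN1 encodes talin-1, an adaptor between integrins and actin. Each group has 2 libraries, described as biological replicates. The labels name 1 siRNA against TLN1 without its sequence, and these samples include no second siRNA and no rescue.

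SAR1, once loaded with GTP by its exchange factor PREB (SEC12), inserts into the ER membrane and recruits SEC23-SEC24 heterodimers. SEC24 binds the cargo, whereas SEC23 stimulates GTP hydrolysis by SAR1, and the SEC13-SEC31 cage then assembles over the inner coat. SEC23A and SEC23B are closely related paralogs: loss of SEC23A function in humans causes a skeletal dysplasia with impaired collagen secretion, and SEC23B mutations cause a form of congenital dyserythropoietic anaemia. SEC24 splits into an A/B and a C/D subfamily with partly different cargo.

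Total counts ran from 31854322 to 46353297 per library. The count columns carry a number that recurs once in each group and matches no label, so the libraries are called a and b after it. TLN1 in siTLN1 was at 5.55% of its SCR mean. The 7 mesenchymal or basal markers examined (VIM, FN1, CDH2, ZEB1, SPARC, CD44 and AXL) summed to between 36000.2 and 43143 CPM in each library, of which FN1 alone gave 23553 to 32369 CPM. Within that list CDH2 was lower in siTLN1 (302.7 and 292.6 CPM in libraries a and b, against 569.02 and 534.6 CPM in SCR), as was SPARC (3705 and 3500 CPM against 5119 and 4917 CPM). The siTLN1 libraries also lay below the SCR libraries for CD44, ZEB1 and AXL, and above them for FN1, whereas VIM overlapped between the groups. The part of these markers in the results was not tested. The 7 luminal epithelial markers summed to between 131.4 and 162.6 CPM, with EPCAM, KRT19 and ESR1 at or near 0 and KRT18 at 103.9 to 130.6 CPM, KRT8 at 15.1 to 20.7 CPM and GATA3 at 9.75 to 13.8 CPM. The labels call the cells epithelial. The 2 blood markers summed to at most 0.629 CPM and the 2 endothelial markers to at most 4.72 CPM. All values are means over a culture, so fewer cells holding a transcript and less of it per cell cannot be told apart.

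All 10 genes passed the filter on low counts, with raw counts from 1548 (SEC24B) to 14710 (SEC31A) in a library. Abundance is given in CPM, the counts of a gene scaled to the size of the library by the TMM method. Levels of different genes are compared only after division by the length of their merged exons, as CPM per kilobase. In SCR the order of mean levels was SEC13 (39.2 CPM per kilobase), SEC31A (35.04), SEC23A (25.6), SEC24D (20.6), SEC23B (17.2), SAR1A (14.4), SEC24C (13.05), SEC24A (10.2), SEC24B (9.09) and SAR1B (6.13). No pair of neighbours in that order overlapped between its libraries. In siTLN1 the mean of SEC23A, 11.1 CPM per kilobase, stood in position 7 of the order and no longer in position 3. Its libraries there overlapped those of SEC24A (10.4 CPM per kilobase). The neighbours SEC31A and SEC13, SEC24D and SEC23B, SAR1A and SEC24C, and SEC24A and SEC24B also overlapped in siTLN1. With the length of 1 transcript per gene, SEC23A went from position 3 to position 4, and its SCR libraries on that scale overlapped those of SEC24D.

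**Figure D1:**
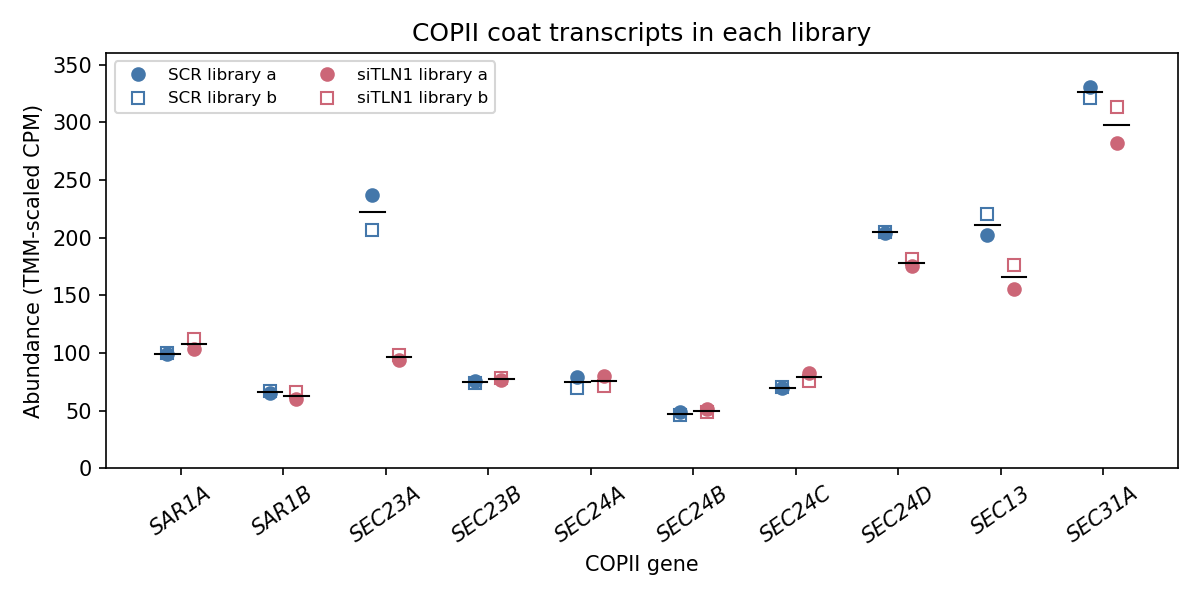
Abundance of the 10 COPII transcripts in TMM-scaled CPM on a linear axis, with 1 point per library (blue SCR, red siTLN1; filled circles library a, open squares library b) and bars at the group means. SEC23A goes from a mean of 221.9 to 96.4 CPM, whereas SEC23B lies between 73.6 and 78.3 CPM in all 4 libraries.

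SEC23A (ENSG00000100934; GRCh38, chromosome 14, 39031919 to 39109646, minus strand) was the member with the widest gap between the groups. Its abundance was 237.2 and 206.6 CPM in SCR libraries a and b, and 94.3 and 98.4 CPM in siTLN1 libraries a and b. The groups were well apart, and the SCR libraries differed from each other by more than the siTLN1 libraries did. The means were 221.9 ± 21.7 CPM and 96.4 ± 2.92 CPM (SD, n = 2 each), and the siTLN1 mean was 43.4% of the other. The log2 fold change was −1.20 (standard error 0.098). The log2 ratio of siTLN1 to SCR was −1.33 between the a libraries and −1.07 between the b libraries. A larger fall was fitted for 92 of the 16137 genes tested, of which 43 passed the test.

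A feature of the SEC23A transcript that the count data do not use is a copy of the word GACAACA in its 3′ UTR. This word was picked in an earlier analysis of these same counts. Its occurrence here is therefore a description and no independent evidence. The search used 1 coding transcript per gene of GENCODE 29 (GRCh38), the transcript strand only. SEC23A is the sole member of the 10 with the word in the 3′ UTR, at chr14:39033106-39033112, and 3 of its 11 coding transcripts hold it there. Among tested protein-coding genes, 7.31% hold the word in the 3′ UTR, and 5.82% of those do whose 3′ UTR is close in length to the 1319 bases of SEC23A (1056 to 1648 bases). SEC24D, SEC31A and SAR1B hold it in coding sequence, as 15.9% of tested protein-coding genes do. The stretches around the word are shown for SEC23A and for a copy in SEC24D and in SAR1B, read 5′ to 3′ on the transcript with the word in capitals, so that the 3′ UTR copy can be set beside coding ones.
SEC23A, 3′ UTR, chr14:39033095-39033123, minus strand: gtatggtttgaGACAACAtatggaaaatg
SEC24D, coding, chr4:118741007-118741035, minus strand: gcacttggataGACAACAatttttgaacg
SAR1B, coding, chr5:134620942-134620970, minus strand: tgacagacttgGACAACAtgtcccaacat
The members with the word in coding sequence, SEC24D, SEC31A and SAR1B, did not pass the test for a difference between the groups. Their log2 fold changes were −0.20, −0.13 and −0.078, all on the lower side in siTLN1. Outside the members, TLN1, the siRNA target, and the cargo receptor TMED2 also hold it in coding sequence. Both were lower in siTLN1, with log2 fold changes of −4.17 and −0.49. Whether a coding copy had a part in any difference was not tested. SEC23B, all 4 SEC24 genes but SEC24D, SEC13 and SAR1A lack the word in the transcript searched.

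SEC23B (ENSG00000101310; chromosome 20, 18507520 to 18561415, plus strand), the paralog that could replace SEC23A in the inner coat, had nearly the same abundance in every library. It was at 75.6 and 73.6 CPM in SCR libraries a and b and at 76.3 and 78.3 CPM in siTLN1 libraries a and b. Both siTLN1 libraries lay above both SCR libraries, by a margin under 1 CPM between the closest. The means were 74.6 ± 1.42 CPM and 77.3 ± 1.43 CPM (SD, n = 2 each). On the log2 scale the difference was 0.051 (standard error 0.092). This did not pass edgeR's quasi-likelihood test (Benjamini-Hochberg adjusted p = 0.83 over all 16137 genes tested). The 95% interval of the fold change ran from 0.905 to 1.19.

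Whether SEC23B made up for SEC23A was then asked on the scale of CPM per kilobase. SEC23A lost a mean of 14.5 CPM per kilobase and SEC23B differed by 0.61, which is 4.21% of that loss. Between the a libraries the share was 0.883%, and between the b libraries 8.60%. A full offset would have needed SEC23B to rise 1.84-fold, which lies above the upper end of its interval. At that upper end SEC23B would make up 21.9% of the loss. With the length of 1 transcript per gene in place of merged exons, the share was 2.51% and the rise needed was 2.42-fold. On both lengths the rise needed lay above the interval of SEC23B, so at the transcript level a full offset was outside that interval. Protein was not measured.

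The sum of both SEC23 transcripts was 44.8 and 40.8 CPM per kilobase in SCR libraries a and b, and 28.4 and 29.4 in siTLN1 libraries a and b. The group sums did not overlap. The mean sum in siTLN1 was 67.6% of that in SCR, from 42.8 ± 2.83 (SD, n = 2) to 28.9 ± 0.668 CPM per kilobase (SD, n = 2). This sum contains SEC23A and is a description, and with 2 libraries against 2 an exact permutation test could not go below a two-sided p of 0.333. SEC23A made up 59.8% ± 1.90 (SD, n = 2) of the sum in SCR and 38.5% ± 0.278 (SD, n = 2) in siTLN1. The more abundant SEC23 transcript was thus SEC23A in SCR and SEC23B in siTLN1 with merged exon lengths. With the length of 1 transcript per gene, SEC23A was 71.4% of the sum in SCR and, at 51.2%, still the larger share in siTLN1, so which paralog led in siTLN1 depends on the length used. The coding sequences of both genes are 75.5% identical over 2297 aligned bases, and the longest run of bases that their transcripts share is 23.

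**Figure D2:**
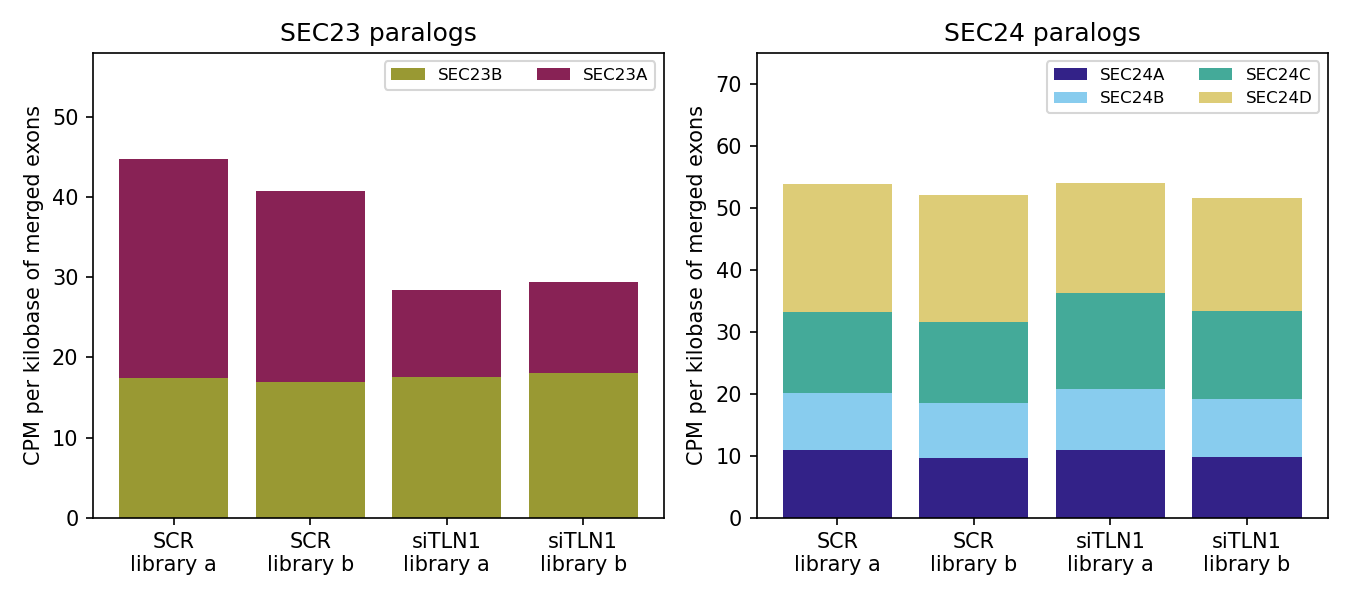
Stacked bars of CPM per kilobase of merged exons in each of the 4 libraries, for the SEC23 paralogs (left) and the SEC24 paralogs (right), both axes starting at 0. The SEC23A segment shrinks in both siTLN1 libraries over a nearly level SEC23B segment, and the SEC24 stacks stay between 51.6 and 54.0 CPM per kilobase.

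The 4 SEC24 genes, which carry the cargo-binding sites of the inner coat, did not pass the test in either direction. Of the 9 members other than SEC23A, 0 rose and 1 (SEC13) fell at an adjusted p under 0.05 in edgeR's test. Across all genes tested 6.07% passed, 2.3% as higher and 3.77% as lower. Unadjusted, 2 of the 9 had a p under 0.05 in that test, as did 3196 of all 16137 genes tested. The libraries of 7 of the 9 did not overlap between the groups, against 48.4% of all genes tested. Of these, 4 were higher in siTLN1 (23.9% of all genes) and 3 lower (24.6%). The median log2 fold change of the 9 was 0.025, beside 0.0033 over all genes tested.

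SEC24D (ENSG00000150961; chromosome 4, 118722823 to 118838683, minus strand) had the highest SEC24 level per kilobase of merged exons, with all annotated exon bases counted. It was at 204.4 and 204.5 CPM in SCR libraries a and b, and at 175.5 and 181.2 CPM in siTLN1 libraries a and b. Its mean in siTLN1 was lower by 12.8%, or −0.20 on the log2 scale (standard error 0.090, adjusted p 0.235). SEC24C (ENSG00000176986; chromosome 10, 73744372 to 73772161, plus strand), of the same subfamily, leaned the other way. It was at 69.6 and 70.1 CPM in SCR libraries a and b, and at 82.9 and 75.7 CPM in siTLN1 libraries a and b. The log2 fold change of SEC24C was 0.18 (standard error 0.095, adjusted p 0.304). Exons of another gene on the opposite strand cover 42.8% of the exon bases of SEC24C, and that gene itself was given 5 to 10 counts per library. The libraries are stranded, but strand was not set in the counting command, nor was the handling of reads lying on more than 1 gene. The level of SEC24C is therefore uncertain. So are its place in the order of levels, the lead of SEC24D over it, and the SEC24 sums, shares and ratios that include it.

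SEC24A (ENSG00000113615; chromosome 5, 134648785 to 134727909, plus strand) overlapped between the groups, at 79.1 and 69.9 CPM in SCR libraries a and b and 80.1 and 71.5 CPM in siTLN1 libraries a and b. The a libraries were the higher ones in both groups. Its log2 fold change was 0.025 (adjusted p 0.931), and leaving out SCR library b or siTLN1 library a turned its sign, to −0.062 and −0.060. SEC24B (ENSG00000138802; chromosome 4, 109433772 to 109540896, plus strand) was at 48.7 and 46.1 CPM in SCR libraries a and b, and at 51.4 and 48.8 CPM in siTLN1 libraries a and b, a log2 fold change of 0.078 (adjusted p 0.725). The 4 SEC24 levels summed to 53.0 ± 1.16 CPM per kilobase (SD, n = 2) in SCR and 52.8 ± 1.73 CPM per kilobase (SD, n = 2) in siTLN1, a difference smaller than the spread between libraries. Within that sum, SEC24D went from 38.9% ± 0.863 (SD, n = 2) to 34.1% ± 1.89 (SD, n = 2) and SEC24C from 24.6% ± 0.672 (SD, n = 2) to 28.0% ± 0.869 (SD, n = 2), as descriptions. The ratio of summed SEC23 to summed SEC24 levels per length was 0.833 and 0.782 in SCR libraries a and b and 0.527 and 0.570 in siTLN1 libraries a and b. This ratio carries the SEC23A difference that chose the genes.

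**Figure D3:**
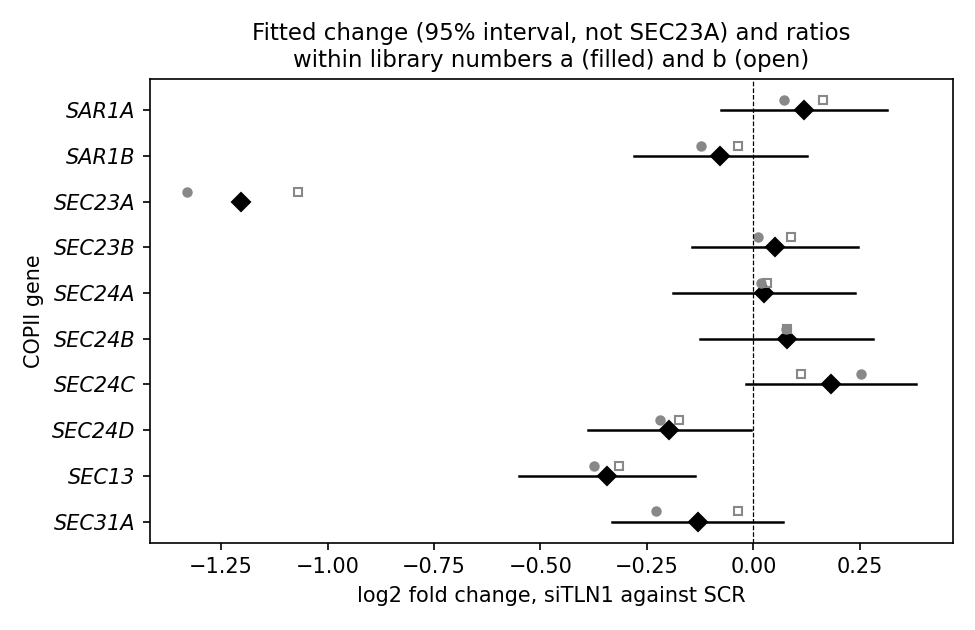
Fitted log2 fold change of siTLN1 against SCR for each COPII gene (diamonds) with its 95% interval (lines, not drawn for SEC23A, which was selected on these values), and above it the log2 ratio between the a libraries (filled grey) and between the b libraries (open grey). SEC23A lies at −1.20, and the other 9 genes lie between −0.34 and 0.18.

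SEC13 (ENSG00000157020; chromosome 3, 10293131 to 10321112, minus strand) encodes a propeller protein of the outer coat that is also a subunit of the nuclear pore and of the GATOR2 complex in nutrient sensing. Its abundance was 201.8 and 220.03 CPM in SCR libraries a and b, and 155.8 and 176.7 CPM in siTLN1 libraries a and b. Both siTLN1 libraries were below both SCR libraries, and in each group the b library was the higher one. The means were 210.9 ± 12.9 CPM and 166.2 ± 14.7 CPM (SD, n = 2 each), so the transcript fell by 21.2%. The log2 fold change was −0.34 (standard error 0.098, adjusted p 0.0464) in edgeR's test, close to the threshold. The log2 ratio was −0.37 between the a libraries and −0.32 between the b libraries. The call was lost when all 32708 genes with counts were tested (log2 fold change −0.33, standard error 0.096, adjusted p 0.113 in edgeR's test). It was also lost when SCR library b or siTLN1 library a was left out, with log2 fold changes of −0.28 and −0.26. Over the alternatives with all 4 libraries the adjusted p ran from 4.44e-06 to 0.113. Its exons share 3.83% of their bases with the antisense gene GHRLOS, whose own raw counts were 32 to 57 per library.

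SEC31A (ENSG00000138674; chromosome 4, 82818509 to 82901166, minus strand), the rod that with SEC13 forms the cage edges, was at 330.4 and 321.2 CPM in SCR libraries a and b. In siTLN1 libraries a and b it was at 282.0 and 313.03 CPM. The groups did not overlap, but the siTLN1 libraries differed from each other by more than their closer one did from SCR. The log2 fold change of −0.13 (standard error 0.095) did not pass the test, with an adjusted p of 0.494. Its paralog SEC31B was at 0.697 ± 0.273 CPM in SCR and 0.931 ± 0.0824 CPM in siTLN1 (SD, n = 2 each), so nearly all SEC31 transcript counted came from SEC31A. The ratio of SEC13 to SEC31A per length was 1.06 and 1.18 in SCR libraries a and b, and 0.955 and 0.975 in siTLN1 libraries a and b.

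The GTPases that start coat assembly did not pass the test. SAR1A (ENSG00000079332; chromosome 10, 70147289 to 70170523, minus strand) was at 98.7 and 99.9 CPM in SCR libraries a and b, and at 103.8 and 111.8 CPM in siTLN1 libraries a and b. Its log2 fold change was 0.12 (standard error 0.092, adjusted p 0.528). SAR1B (ENSG00000152700; chromosome 5, 134601149 to 134649271, minus strand), whose mutations in humans block chylomicron export from the gut, was at 65.0 and 67.4 CPM in SCR libraries a and b, and at 59.7 and 65.7 CPM in siTLN1 libraries a and b. Its groups overlapped, and its log2 fold change was −0.078 (adjusted p 0.728). SAR1A made up 70.1% ± 0.372 (SD, n = 2) of the summed SAR1 level per length in SCR and 72.9% ± 0.316 (SD, n = 2) in siTLN1. SAR1B and SEC24A lie head to head on chromosome 5, with annotated starts that overlap by 487 bases. Reads from their 389 shared exon bases cannot be told apart by strand.

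The 5 tested genes whose pattern over the 4 libraries was nearest to that of SEC23A were RBM24, TWSG1, CABLES2, HINT3 and CNOT11, out of 10466 candidates with a symbol and a mean of at least 5 CPM. Nearness was the Euclidean distance between centred log2 CPM values, from 0.089 for RBM24 to 0.19 for CNOT11. The other members lay at distances of 0.89 (SEC13) to 1.40 (SEC24C). RBM24, an RNA-binding protein, went from 20.3 ± 0.844 CPM to 8.93 ± 0.0756 CPM (SD, n = 2 each). TWSG1, a secreted modulator of BMP signalling, went from 126.2 ± 14.9 CPM to 57.4 ± 3.12 CPM (SD, n = 2 each). Of these 5 genes, 4 hold the word GACAACA in the 3′ UTR of the transcript searched, CABLES2 being the exception. Among tested protein-coding genes 7.31% do, a share not matched to the 3′ UTR lengths of these 5. The word was itself picked from these same counts, so its occurrence here is no independent evidence. As they were picked for matching a known fall, these values are descriptions.

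Other genes of ER export and related steps were taken from 5 lists holding 75 genes. Of these, 73 were tested (SEC16B and TRAPPC5 did not pass the filter). The 73 include 17 genes of the COPI coat, which acts from Golgi to ER, and 6 transcription factors. The pooled values are therefore not those of ER export alone. Of the 73, 0 rose and 6 fell, against 2.3% and 3.77% of all genes tested. Their median log2 fold change was −0.083, beside 0.0033 over all genes tested, with 51 of the 73 below 0, against 7967 of the 16137 genes tested.

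Of 12 exit site organisers and coat regulators none passed, with a median log2 fold change of 0.022. They include the exchange factor PREB (54.2 ± 3.47 CPM in SCR and 56.3 ± 4.97 CPM in siTLN1, SD, n = 2), the scaffold SEC16A (113.2 ± 4.29 and 101.7 ± 5.47 CPM) and the collagen export receptor MIA3, also called TANGO1 (99.1 ± 0.726 and 107.4 ± 2.36 CPM). Their adjusted p values were 0.835, 0.391 and 0.532.

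Of 19 cargo receptors, 0 rose and 2 fell, with a median of −0.10. TMED2, a p24 protein that helps load GPI-anchored and other cargo, fell from 307.3 and 295.2 CPM in SCR libraries a and b to 202.5 and 227.5 CPM in siTLN1 libraries a and b. Its log2 fold change was −0.49 (adjusted p 0.00559). LMAN2, a lectin for high-mannose glycans, fell from 165.1 ± 22.2 to 113.9 ± 8.90 CPM (SD, n = 2 each), which is −0.54 on the log2 scale (adjusted p 0.00665). Both calls were lost without siTLN1 library a, at adjusted p values of 0.118 and 0.0973, which were the largest over their alternatives (the smallest were 5.14e-10 and 1.07e-11).

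Of 19 SNAREs and tethers between ER and Golgi, 0 rose and 1 fell, with a median of −0.16. GORASP2, a Golgi stacking protein also called GRASP55, fell from 129.01 ± 7.56 to 91.6 ± 6.05 CPM (SD, n = 2 each), which is −0.49 on the log2 scale (adjusted p 0.00492). Without siTLN1 library a its adjusted p was 0.105, in a range of 4.26e-10 to 0.105.

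Of 17 genes of the COPI coat, which returns material from Golgi to ER, 0 rose and 2 fell, with a median of −0.11. COPZ2 had a log2 fold change of −0.46 (adjusted p 0.0307) and COPG1 one of −0.34 (adjusted p 0.0413). Both calls were lost with no filter on low counts (0.0796 and 0.0873) and without SCR library b or siTLN1 library a, and that of COPG1 also without SCR library a or siTLN1 library b. Adjusted p values reached 0.37 for COPZ2 and 0.345 for COPG1, from 4.34e-07 and 9.14e-06.

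Of 6 transcription factors of secretory genes, CREB3L2 alone passed the test. CREB3L2 (BBF2H7) is an ER-anchored factor that activates Sec23a transcription in mouse chondrocytes. It fell from 315.9 and 284.9 CPM in SCR libraries a and b to 172.4 and 170.9 CPM in siTLN1 libraries a and b. The groups were well apart, with means of 300.4 ± 21.9 CPM and 171.6 ± 1.05 CPM (SD, n = 2 each). The log2 fold change was −0.81 (standard error 0.094, adjusted p 6.55e-05). Across all alternatives, each library left out included, the adjusted p of CREB3L2 ran from 1.60e-20 to 0.00113. Its 3′ UTR of 5497 bases holds 2 copies of GACAACA, and 23.5% of tested protein-coding genes with a 3′ UTR of 4401 to 6871 bases hold at least 1. Of the 6 list genes that fell, 2 (CREB3L2 and GORASP2) hold the word in the 3′ UTR of the transcript searched. Among tested protein-coding genes 7.31% do, a share not matched to 3′ UTR length. The word was picked from these same counts, so this is no independent evidence. CREB3L1, a close relative of CREB3L2, was at 221.2 ± 28.7 CPM in SCR and 209.2 ± 3.10 CPM in siTLN1 (SD, n = 2 each), with an adjusted p of 0.734. Whether the lower CREB3L2 level, or the word in either 3′ UTR, had a part in the SEC23A difference was not tested.

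**Figure D4:**
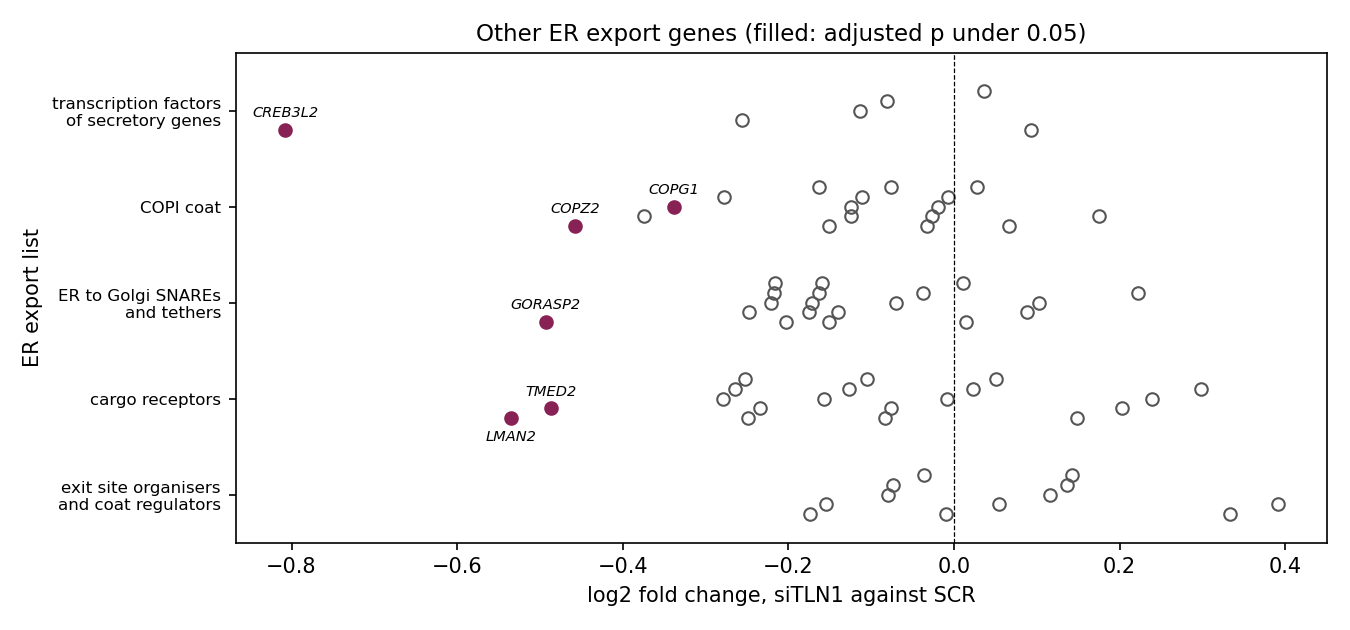
Log2 fold change of siTLN1 against SCR for 73 genes of ER export, the COPI coat and secretory gene transcription, in 5 lists. Each gene is 1 point, spread vertically within its list for legibility. Filled points are the 6 genes with an adjusted p under 0.05, all of them lower in siTLN1, with CREB3L2 lowest at −0.81.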

How the data were processed

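The authors deposited raw counts per gene from featureCounts 2.0.0 on GENCODE 33 (GRCh38) with the paired-read option and no strand or multi-mapping option, per the file headers; reads were aligned with STAR 2.7.9a, per the submitters' processing notes. They also deposited log2 CPM values, which equal edgeR's TMM log2 CPM to 6 decimals in 100% of genes for SCR, values sorted within the group. Merged exon lengths, in bases, are another deposited column (other than counts). Count columns were mapped to groups only. Of 60721 genes, 16137 passed filterByExpr (minimum count 10, total 15). edgeR 4.0.16 (R 4.3.3; TMM, robust quasi-likelihood fit, current method) compared the groups, with Benjamini-Hochberg adjustment over all tested genes and a threshold of 0.05. Intervals and standard errors come from that fit. The procedure was tested on simulated counts with the same dispersion for all genes and a fixed size of change. Smaller changes, such as that of SEC13, were not covered.

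The members and lists were chosen with earlier results of these data known. Named genes were the members, TLN1, up to 3 genes of each list that passed the threshold, by smallest p, and the 5 nearest to SEC23A. Sequences are GENCODE 29 transcripts with the longest coding sequence. Alternatives were scaling by RLE or by total counts alone, testing without the filter, DESeq2 1.42.0, limma-trend (limma 3.58.1) with and without a replicate block, each library left out, and other lengths. Raw counts of the members were 1548 to 14710 per library.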

Additional observations from a re-analysis of the deposited data

How the results depend on the processing

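SEC23A was lower in siTLN1 under every alternative run, with log2 fold changes from −1.30 to −1.10. Each alternative reused the libraries on which SEC23A was selected, so its direction there is a description. SEC23B stayed between 0.031 and 0.071 without passing a threshold. With all 4 libraries, 51 values of the 9 other members kept their direction and their side of the threshold, 2 passed it newly and 1 no longer passed. Without a filter on low counts, 32708 genes were tested in place of 16137. SEC13 then did not pass (−0.33), and 0 of the 9 members other than SEC23A and 0 COPI genes were called lower. Among all genes tested in that fit, 389 were lower. The cause of these differences was not tested. The summed SEC23 level moved with the length used, by construction: with 1 transcript per gene it was 75.1 CPM per kilobase in SCR and 45.5 in siTLN1, with SEC23A shares of 71.4% and 51.2%. Without length division siTLN1 held 58.6% of the SCR sum, with shares of 74.8% and 55.5%.

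In fits that left out 1 library, the lone library is assumed to vary like the other group. SEC13 ran from −0.43 to −0.26 and SEC24A from −0.062 to 0.12. Of the 9 members other than SEC23A, 0 to 1 were called lower. Of the lists, cargo receptors gave 0 to 2 lower and 0 to 1 higher calls, SNAREs and tethers 0 to 1 lower, and COPI genes 0 to 3 lower. Among all genes tested, between 103 and 503 were higher and between 244 and 613 lower.

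The replicate numbers of the labels mark no stated shared preparation. The difference of replicate 1 from replicate 2 in SCR correlated with that in siTLN1 at 0.19 over all genes. The value was 0.53 over genes with a mean of at least 5 CPM, and 2 pairs are too few to establish pairing. With the replicate block, limma-trend on the deposited values called 1720 genes higher and 1930 lower. Under the block SEC24C (0.18, adjusted p 0.0294, in a range to 0.795) and SEC24D (−0.20, adjusted p 0.0115, in a range to 0.636) passed, so 1 member rose and 2 fell beside SEC23A. It also called 3 cargo receptors higher and 7 lower, 1 SNARE or tether higher and 8 lower, 1 COPI gene higher and 5 lower, and 2 transcription factors lower.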
